A study of Homo sapiens with 18 samples.

Results

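The glucocorticoid receptor (GR) binding regions (GBR) described here were called with Hic-5 present and with Hic-5 depleted, but in neither of the double depletions that also removed a chromatin remodeler. They were chosen by 4 peak lists of GR ChIP-seq in U2OS-GRα cells, an established human osteosarcoma line stably transfected with GRα. A member is a peak of the siHic5/siNS list (Hic-5 siRNA with non-specific siRNA) that overlapped by at least 1 bp a peak of the siNS/siNS list (non-specific siRNA alone) and no peak of the siCHD9/siHic5 list (CHD9 and Hic-5 siRNA) or the siBRM/siHic5 list (BRM and Hic-5 siRNA). This rule found 278 GBR among the 2474 shared GBR, that is siHic5/siNS peaks that overlapped a siNS/siNS peak, and among all 9533 siHic5/siNS peaks. The siCHD9/siNS and siBRM/siNS lists, from cells in which CHD9 or BRM was depleted with Hic-5 present, were not used by the rule. All 6 groups received 2 siRNAs for 48 h and then 100 nM dexamethasone (dex) for 1 h, and no group without dex was among the lists. Each list was called by the authors from 2 replicates combined, so a GBR has 1 value per list and no spread between replicates. Intervals below cover counting error over GBR, and neighbouring GBR are not independent of each other. Peak lists hold no expression values, so neither the depletion of Hic-5, CHD9 and BRM nor the identity of the cells was checked here.

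GR is a ligand-activated transcription factor that binds DNA as a dimer at glucocorticoid response elements (GRE), inverted repeats of a short half-site, mostly in enhancers far from the genes it regulates. Hic-5, encoded by TGFB1I1, is a LIM-domain protein of the paxillin family that is found at focal adhesions and also acts in the nucleus as a coregulator of steroid receptors. CHD9 is a chromodomain helicase, and BRM, encoded by SMARCA2, is an ATPase subunit of the SWI/SNF complex; both use ATP to move or open nucleosomes. AP-1, a dimer of FOS and JUN family proteins, and factors of the ETS family bind many of the enhancers that GR occupies.

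The sequences below are the reference (GRCh38, plus strand, positions counted from 1) from 50 bases before to 50 bases after the siHic5/siNS summit of 8 members. The first 5 are the second to the sixth strongest members in the siHic5/siNS list, and the last 3 lie near a gene of the glucocorticoid target or adhesion lists. They are shown because the members that led in strength did not share 1 motif. Capitals mark where a GRE, AP-1 or ETS pattern was matched.
RUNX1 intron, chr21:34965566-34965666: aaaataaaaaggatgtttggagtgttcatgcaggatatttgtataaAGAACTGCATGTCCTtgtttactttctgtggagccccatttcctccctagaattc
MCHR1, intergenic, chr22:40732843-40732943: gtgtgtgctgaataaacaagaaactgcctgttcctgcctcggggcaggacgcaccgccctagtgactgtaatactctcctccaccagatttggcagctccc
ITGA2 intron, chr5:53031848-53031948: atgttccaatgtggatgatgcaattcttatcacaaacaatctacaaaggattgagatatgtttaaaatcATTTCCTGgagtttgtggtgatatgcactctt
KCNJ16 intron, chr17:70107597-70107697: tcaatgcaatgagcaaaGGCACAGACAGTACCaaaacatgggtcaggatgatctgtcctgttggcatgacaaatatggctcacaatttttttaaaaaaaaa
NID1, upstream, chr1:236068088-236068188: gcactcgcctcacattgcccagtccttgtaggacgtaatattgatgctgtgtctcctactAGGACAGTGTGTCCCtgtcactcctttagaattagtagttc
BIRC3, upstream, chr11:102301206-102301306: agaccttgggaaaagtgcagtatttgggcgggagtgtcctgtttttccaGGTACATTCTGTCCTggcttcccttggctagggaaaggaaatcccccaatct
PXN intron, chr12:120262725-120262825: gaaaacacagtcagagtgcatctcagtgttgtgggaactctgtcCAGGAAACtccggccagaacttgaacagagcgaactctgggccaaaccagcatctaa
ZFP36, upstream, chr19:39402581-39402681: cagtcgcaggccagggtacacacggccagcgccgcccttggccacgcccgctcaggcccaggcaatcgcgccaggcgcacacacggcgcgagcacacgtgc
A GRE stood within these windows at RUNX1, centred 3 bp from the summit, at KCNJ16, NID1 and BIRC3. The NID1 and BIRC3 elements matched both half-sites without mismatch, and those at RUNX1 and KCNJ16 had 1 mismatch. ITGA2 and PXN carried an ETS match in the window, and their GRE lay farther out, 88 and 127 bp from the summit. The windows at MCHR1 and ZFP36 held none of the 3 patterns.

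The 278 members were 11.2% of the shared GBR, against 61.8% of all siHic5/siNS GBR that were absent from both double depletion lists. Of the other 2196 shared GBR, 1600 were called in both double depletions, 520 were absent from siCHD9/siHic5 alone and 76 from siBRM/siHic5 alone. The count rests on where each list ends. The lowest −log10 q-value was 14.2 in the siBRM/siHic5 list and between 7.26 and 8.91 in the other 5 lists, and 37 members (13.3%) reached 14.2 in both the siNS/siNS and the siHic5/siNS list. With all lists held to that value 55 shared GBR were absent from both double depletions, 37 of them members, and with the 4 lists of the rule held to an equal size of 2451 peaks 105 were, 47 of them members.

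Peak strength, given as the −log10 p-value that the peak caller assigned within a list, is a description, since presence above a threshold is what chose the members. In the siHic5/siNS list the members had a median −log10 p of 25.5, with quartiles of 18.7 and 34.7 and extremes of 12.1 and 118, and the other shared GBR had a median of 60.3. In the siNS/siNS list the members had a median of 15.1, with quartiles of 13.9 and 17.0, and the other shared GBR had a median of 23.5. The members thus sat below the other shared GBR in both lists. In siNS/siNS, 165 of them were among the weakest 646 of the 2582 peaks. They were not low in the siHic5/siNS list as a whole, where the median over all 9533 peaks was 22.4. The rank of a member among these peaks ran from 338 to 9380. Its median was 4027, against 4767 over all of them. In 45 members the −log10 p was higher in siNS/siNS than in siHic5/siNS, although such values also depend on sequencing depth, which was not measured here. The same count was not made for the other shared GBR. Member peaks were narrower than those of the other shared GBR, with median widths of 498 and 668 bp in the siHic5/siNS list.

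**Figure D1:**
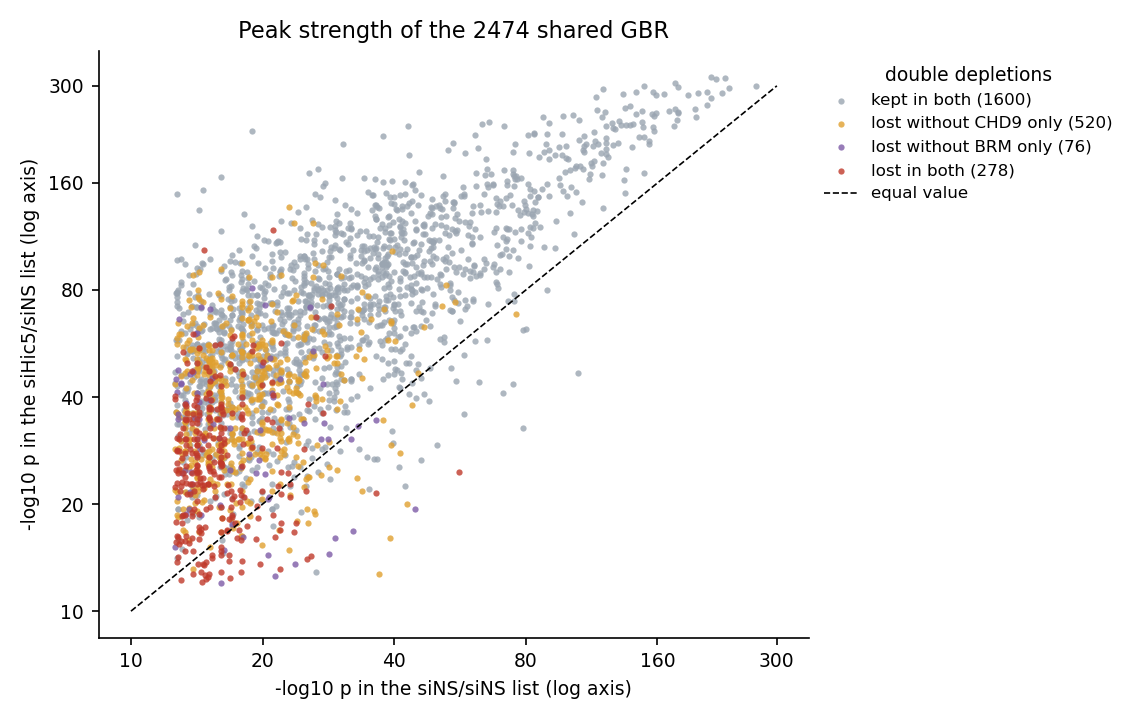
Each point is 1 of the 2474 shared GBR, with its −log10 p-value in the siNS/siNS list on the x axis and in the siHic5/siNS list on the y axis (both log axes), coloured by its presence in the double depletions. The 278 GBR lost in both lie mostly at the lower left, and 2 reach a siHic5/siNS value above 100.

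When the shared GBR were split by siHic5/siNS −log10 p into 10 groups of equal size, 47.2% of the weakest group, 27.1% of the second and 21.8% of the third were absent from both double depletions. The share was 6.48% in group 4 and 0.810% in group 7, and 2 members were in group 9 and 0 in group 10. Split by siNS/siNS −log10 p, the share fell from 29.0% in the weakest group to 0 in the strongest. GBR absent from siCHD9/siHic5 alone had a different profile, with 67 of 248 in group 1 and 82 of 247 in group 5 by siHic5/siNS −log10 p.

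**Figure D2:**
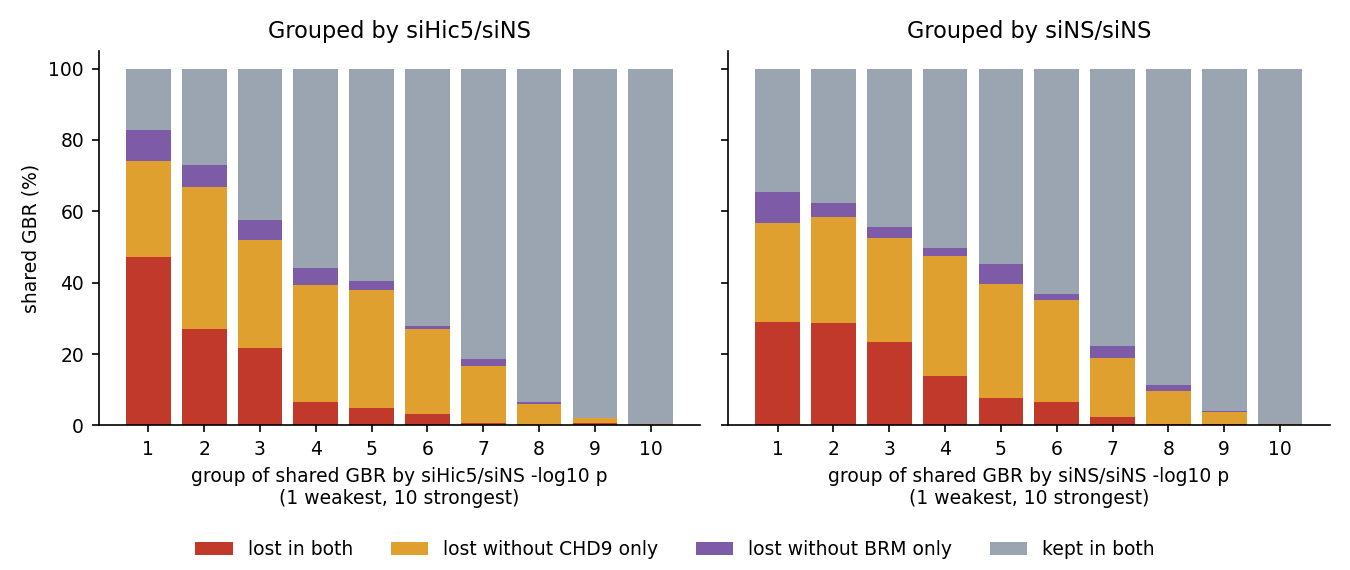
Stacked bars give the percentage of shared GBR in each class of presence in the double depletions, for 10 groups of the shared GBR of equal size from the weakest (1) to the strongest (10) by −log10 p in siHic5/siNS (left) and siNS/siNS (right). The share lost in both (red) drops from 47.2% to 0 on the left and from 29.0% to 0 on the right.

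The strongest member lay on chromosome 8 (chr8:29377597-29378214), 27.2 kb upstream of DUSP4, which encodes a MAP kinase phosphatase. Its −log10 p was 118 in siHic5/siNS (rank 338) and 21.2 in siNS/siNS, and it was called with 13.5 in siBRM/siNS but not in siCHD9/siNS. The member in an intron of RUNX1 (chr21:34965363-34965895), a transcription factor of skeletal and blood cell differentiation, had 104 in siHic5/siNS (rank 444) and 14.7 in siNS/siNS and was in neither single depletion list. The intergenic member 53.4 kb downstream of the transcription start site (TSS) of MCHR1 (chr22:40732652-40733207), a melanin-concentrating hormone receptor, had 71.9 in siHic5/siNS, 28.7 in siNS/siNS and 12.2 in siBRM/siNS. These 3 sites were in groups 7 to 9 of the 10 by strength after Hic-5 depletion and were still absent from both double depletions. The member in an intron of ITGA2 (chr5:53031541-53032622), the integrin α2 subunit of a collagen receptor, had 67.4 in siHic5/siNS and 26.5 in siNS/siNS, and the nearest double depletion peak was 2687427 bp away.

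The next 6 members by siHic5/siNS −log10 p had values between 55.9 and 60.3. They lay in introns of the potassium channel gene KCNJ16, the flippase gene ATP11B and the trafficking gene TRAPPC9, 3.05 kb upstream of NID1 (nidogen, a basement membrane protein), 36.1 kb upstream of the glutamate transporter gene SLC1A3, and in an intergenic region whose nearest TSS was TBC1D4, a Rab GTPase-activating protein. Their siNS/siNS values were 13.9 at KCNJ16, 22.0 at ATP11B and 17.2 at NID1, and none of the 6 was called in a single depletion list. The TRAPPC9 member (chr8:139959760-139961426) was 801 bp from a siBRM/siHic5 peak, whereas the KCNJ16 member (chr17:70107398-70107885) was 963884 bp from the nearest one.

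The strongest member in the siNS/siNS list lay 120 kb downstream of the TSS of CDH26, a cadherin gene (chr20:60078494-60079126), with 56.3 in siNS/siNS (rank 283) and 24.6 in siHic5/siNS (rank 4225). The second, in an intron of RPRD1B, whose product binds RNA polymerase II (chr20:38109163-38109556), had 36.2 in siNS/siNS and 21.5 in siHic5/siNS. After MCHR1, the intergenic member with ZFP36L2 as its nearest TSS and a member in an intron of PKD1L1 followed, with 27.8 and 27.5 in siNS/siNS. The 3 weakest members in siHic5/siNS were in an intron of VMP1, an autophagy gene, with 12.1, in the pericentromeric part of chromosome 21 with TPTE as its nearest TSS (12.2), and at 147 kb from ZNF608 (12.3). The window at the TPTE member held 67 matches to the letters GGAATG, and 2 members and 3 other shared GBR had windows with 10 or more such matches.

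Presence in the single depletions was not used by the rule and was lower in the members than in the other shared GBR. In siCHD9/siNS, 7 of 278 members were called (2.52%, 95% Wilson interval 1.22 to 5.11%), whereas 50.0% of all shared GBR and 14.5% of all siHic5/siNS GBR were. The other shared GBR were called at 56.0%, a difference of −53.4 percentage points (95% Newcombe interval −55.9 to −50.1). In siBRM/siNS, 19 members were called (6.83%, 4.42 to 10.4%), against 48.9% of all shared GBR, 13.1% of all siHic5/siNS GBR and 54.2% of the other shared GBR. That difference was −47.4 points (−50.6 to −43.2). No member was in both single depletion lists (0 of 278, interval up to 1.36%), while 41.6% of the other shared GBR were. Blocked GBR (siHic5/siNS peaks without a siNS/siNS peak) that were absent from both double depletions were called at 0.125% in siCHD9/siNS and 0.0713% in siBRM/siNS, below the members by 2.39 points (1.09 to 4.98) and 6.76 points (4.34 to 10.4). By definition blocked GBR lack a peak in siNS/siNS, where Hic-5 is present, and the members have one. How far this bears on the low share of blocked GBR in the other lists with Hic-5 present was not tested.

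The other shared GBR were not alike in these calls. Those kept in both double depletions were called at 72.3% in siCHD9/siNS and 64.6% in siBRM/siNS. Those absent from siCHD9/siHic5 alone were called at 10.6% in siCHD9/siNS and 27.9% in siBRM/siNS, from which the members differed by −8.06 points (−11.3 to −4.56) and −21.1 points (−25.7 to −15.9). Those absent from siBRM/siHic5 alone were called at 22.4% and 15.8%, from which the members differed by −19.9 points (−30.5 to −11.5) and −8.95 points (−19.1 to −1.51). In both of these classes the lower share was in the single depletion of the remodeler whose double depletion lacked the GBR. For the class absent from siBRM/siHic5 alone this rests on 17 and 12 of 76 GBR, with overlapping Wilson intervals (14.5 to 32.9% and 9.27 to 25.6%). Over 5 groups by siHic5/siNS −log10 p, added after the data were seen, the members differed from the class absent from siCHD9/siHic5 alone by −6.42 points (−10.04 to −2.80) in siCHD9/siNS, and from the class absent from siBRM/siHic5 alone by −8.57 points (−17.7 to 0.55) in siBRM/siNS, an interval that included 0.

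Weak peaks are called less often in any list, and the members were weaker than the other shared GBR. The comparison was therefore repeated within 5 groups of the shared GBR of equal size by siHic5/siNS −log10 p. In the weakest group, 3 of 184 members (1.63%) and 23.2% of the other shared GBR were called in siCHD9/siNS, and 9 members (4.89%) and 19.3% of the others in siBRM/siNS. In the second group the shares in siCHD9/siNS were 3 of 70 members (4.29%) and 34.4%, and in siBRM/siNS 6 members (8.57%) and 31.8%. Averaged over the 5 groups (Mantel-Haenszel), the differences were −26.8 points (−30.7 to −23.0) in siCHD9/siNS and −19.3 points (−23.7 to −14.9) in siBRM/siNS. They were −28.2 and −14.4 points over 5 groups by siNS/siNS −log10 p. Over 25 groups by both values, an alternative added after the data were seen, they were −21.0 points (−25.0 to −17.0) and −9.02 points (−13.3 to −4.76). The part of strength differences within these groups was not tested.

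**Figure D3:**
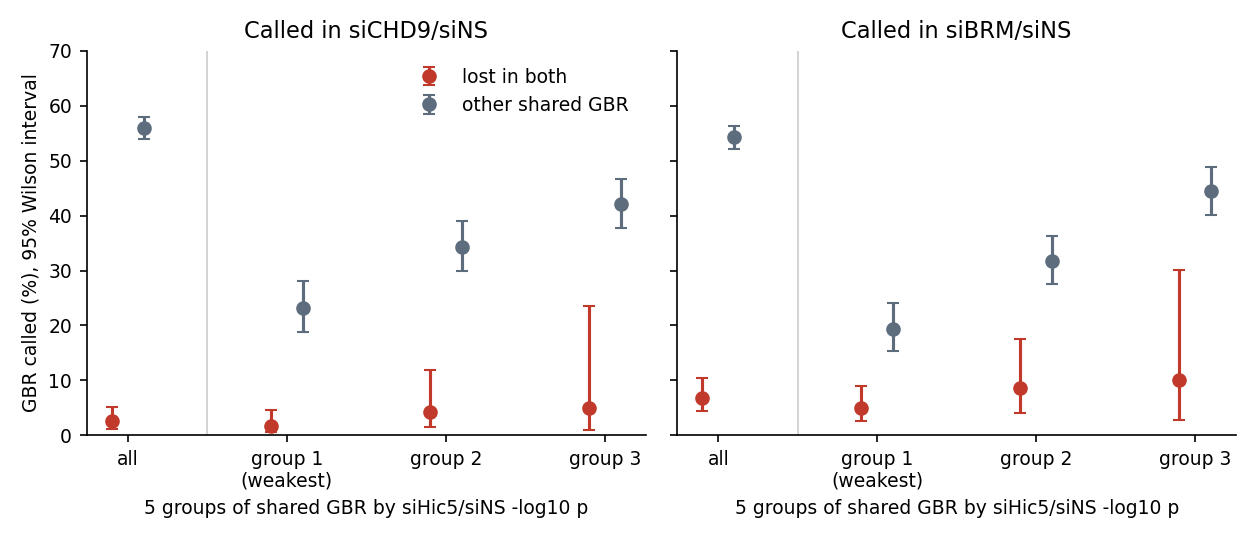
Points give the percentage of GBR called in the siCHD9/siNS (left) and siBRM/siNS (right) lists with 95% Wilson intervals, for members (red) and other shared GBR (grey), over all shared GBR and in the 3 weakest of 5 groups by siHic5/siNS −log10 p. The members lie below the other shared GBR in every group shown, and the 2 strongest groups, with 2 members each, are not drawn.

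The 26 members that were called in 1 single depletion had siHic5/siNS −log10 p values from 12.2 to 118. The 7 in siCHD9/siNS had a median of 33.8 and included sites 175 kb downstream of the TSS of ANXA1, which encodes the glucocorticoid-responsive annexin A1 (chr9:73327052-73327628, 13.8 in siCHD9/siNS), and in introns of CDH13 and ST3GAL6. The 19 in siBRM/siNS had a median of 30.7 and, besides DUSP4 and MCHR1, included sites in SLC25A48 and in a UTR of AMZ1 and a site 28.3 kb upstream of the antiproliferative gene BTG2. A GRE was found at 6 of the 7 and 9 of the 19, and at 147 (58.3%) of the 252 members called in neither.

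Motifs were searched on both strands of the 1 kb centred on the siHic5/siNS summit, and matches of different patterns may overlap. A GRE was taken as 2 half-sites AGNACA or GGNACA in inverted repeat with a 3-base spacer and at most 1 mismatch over the 10 defined bases. AP-1 was TGACTCA or TGAGTCA, and ETS was CAGGAAAC, CAGGAAAT, CAGGAAGC, CAGGAAGT, CCGGAAAC, CCGGAAAT, CCGGAAGC or CCGGAAGT. A match is a string of letters and not evidence that the factor was bound.

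Of the patterns searched in the 1 kb, AP-1 was the one that differed between the members and the other shared GBR beyond the interval with and without grouping by strength. It was found at 69 members (24.8%, 20.1 to 30.2%) and at 38.0% of the other shared GBR, a difference of −13.2 points (−18.3 to −7.40). Over the 5 groups by siHic5/siNS −log10 p the difference was −11.7 points (−17.8 to −5.47), and over 5 groups by siNS/siNS −log10 p −14.6 points (−20.5 to −8.68). In the weakest group alone 24.5% of the members and 36.3% of the others held an AP-1 match. In windows 5 kb to either side the shares were 15.8% for the members and 16.8% for the others, and over all siHic5/siNS GBR 37.1% held a match at the summit. In the central 200 bp 26 members (9.35%) and 19.5% of the other shared GBR had a match, and within 20 bp of the summit there were 2 matches over the 278 members and 88 over the 2196 others. Single bins hold few member matches and were not alike. At 80 bp before the summit members and others had 0.989 and 1.06 matches per kb and GBR, and at 80 bp after it 0.270 and 0.968.

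The AP-1 share also varied among the other classes. GBR absent from siCHD9/siHic5 alone held AP-1 at 24.6%, which differed from the members by 0.20 points (−5.90 to 6.64). GBR kept in both held it at 42.2%, a difference of −17.4 points (−22.7 to −11.5), and those absent from siBRM/siHic5 alone at 39.5%, a difference of −14.7 points (−26.8 to −3.09). Blocked GBR that were absent from both double depletions held AP-1 at 34.4%, above the members, with a difference of −9.55 points (−14.4 to −4.02) and of −8.55 points (−13.9 to −3.22) over 5 groups by strength.

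GRE matches were found at 162 members (58.3%) and at 68.0% of the other shared GBR, a difference of −9.76 points (−15.9 to −3.78). Over the 5 groups by siHic5/siNS −log10 p the difference was −0.60 points (−7.42 to 6.23), so it was not detectable between GBR of like strength. In the weakest group the shares were 56.0% and 56.6%. Where present, the nearest GRE lay at a median of 23 bp from the summit in members and 13 bp in the others. The median was 17 bp in GBR absent from siCHD9/siHic5 alone and 16 bp in those absent from siBRM/siHic5 alone. It was 25 bp in blocked GBR absent from both double depletions. These distances were not grouped by strength. In windows 5 kb to either side 12.8% held a match, and over all siHic5/siNS GBR 53.6% did. Blocked GBR absent from both double depletions had fewer GRE than the members, at 48.8% (difference 9.44 points, 3.43 to 15.2), and over 5 groups by strength the interval of that difference reached 0 (6.01 points, −0.03 to 12.04). A GRE without any mismatch was found at 14.7% of the members and 19.2% of the other shared GBR.

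ETS matches were found at 84 members (30.2%, with 25% in the flanking windows) and 35.6% of the other shared GBR, a difference of −5.39 points (−10.9 to 0.58) that did not pass its interval. Among all siHic5/siNS GBR 37.9% held one, and among blocked GBR absent from both double depletions 39.0% did, −8.78 points for the members against the latter (−14.0 to −3.00) and −10.1 points (−15.8 to −4.49) over 5 groups by strength. Against GBR absent from siCHD9/siHic5 alone the ETS difference was −8.05 points (−14.7 to −1.10), and −5.90 points (−13.4 to 1.59) over 5 groups by strength. In the central 200 bp the ETS difference from the other shared GBR was −3.78 points (−6.70 to 0.14). There it was −0.87 points (−4.66 to 2.91) over 5 groups by siHic5/siNS −log10 p and −4.29 points (−7.98 to −0.60) by siNS/siNS −log10 p. For 4 further patterns the interval of the difference from the other shared GBR included 0 without grouping by strength. RUNX, searched as TGTGGTT, differed by −0.95 points (−5.70 to 4.50), and TEAD, searched as GGAATG, by −2.44 points (−8.67 to 3.64). FOX, searched as TGTTTAC, differed by 2.16 points (−1.99 to 7.14), and C/EBP, searched as TTGCNNAA, by 2.91 points (−3.16 to 9.13). Within groups by siHic5/siNS −log10 p, added after the data were seen, some values for TEAD and RUNX passed the interval. The TEAD difference in the 1 kb was −5.94 points (−12.8 to 0.90) over 5 groups and −7.86 points (−14.8 to −0.93) over 10, and in the central 200 bp it was −6.40 points (−12.3 to −0.54) over 5 groups. The RUNX difference over 5 groups was −3.41 points (−9.17 to 2.36) in the 1 kb and −4.00 points (−7.58 to −0.42) in the central 200 bp. Over groups by siNS/siNS −log10 p the intervals for both patterns included 0.

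**Figure D4:**
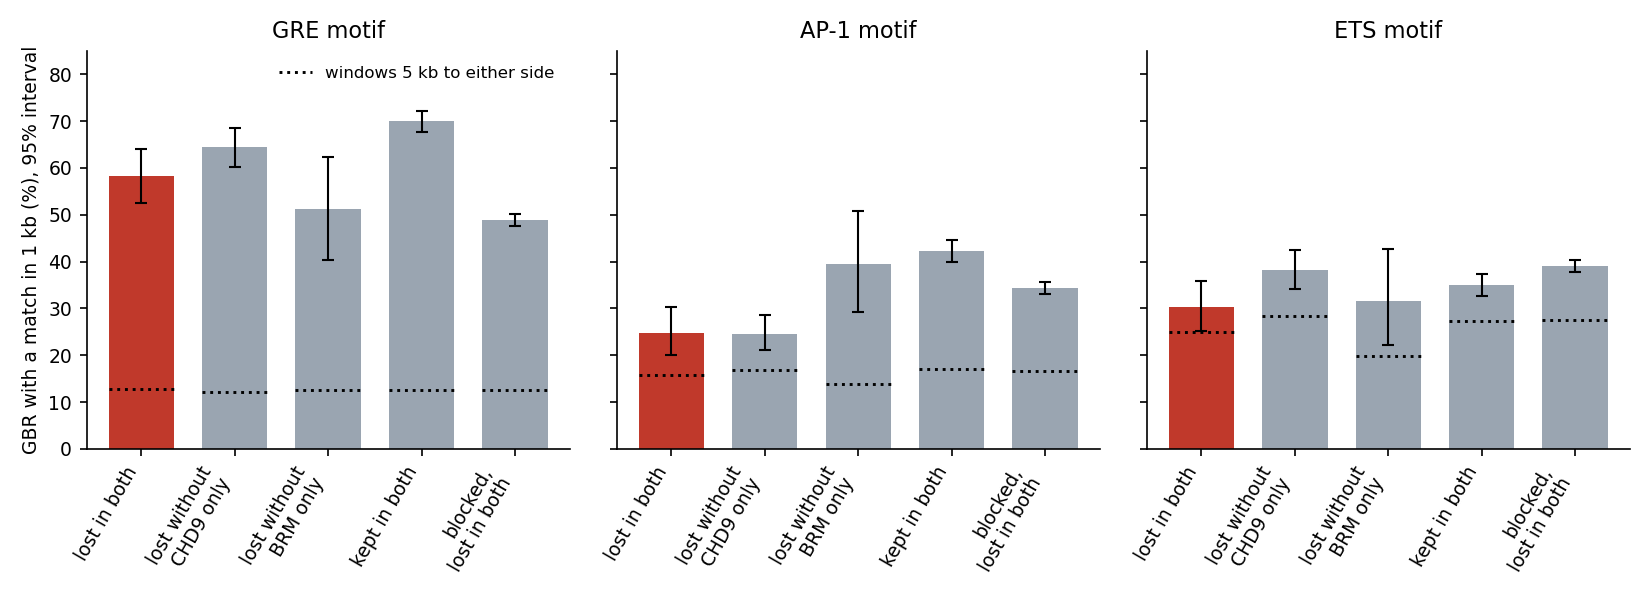
Bars give the percentage of GBR with a GRE, AP-1 or ETS match in the 1 kb at the summit for each class of presence in the double depletions, with 95% Wilson intervals, and dotted lines give the share in windows 5 kb to either side. For AP-1 the members (24.8%) and the GBR lost without CHD9 only (24.6%) are the 2 lowest bars.

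Taken by combination, 127 members (45.7%) had a GRE without AP-1, close to the 43.4% of the other shared GBR, and 35 (12.6%, 9.19 to 17.0%) had both, against 24.6% (22.8 to 26.4%). None of GRE, AP-1 and ETS was found at 58 members (20.9%) and 11.98% of the others, a difference of 8.89 points (4.30 to 14.2), and of 6.54 points (1.16 to 11.9) over 5 groups by siHic5/siNS −log10 p, added after the data were seen. Among all siHic5/siNS GBR 16.2% held none of the 3. The members differed by 10.7 points (6.10 to 16.1) from the GBR kept in both (10.1%), whereas the intervals included 0 against those absent from siCHD9/siHic5 alone (16.3%, difference 4.52 points, −1.03 to 10.4), those absent from siBRM/siHic5 alone (21.1%, −0.19 points, −11.5 to 9.04) and blocked GBR absent from both (18.1%, 2.73 points, −1.75 to 7.98). The MCHR1 window has an ETS match 410 bp from its summit and no other, whereas the ITGA2 window has a GRE, an AP-1 match 106 bp from the summit and an ETS match within the same 1 kb.

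**Figure D5:**
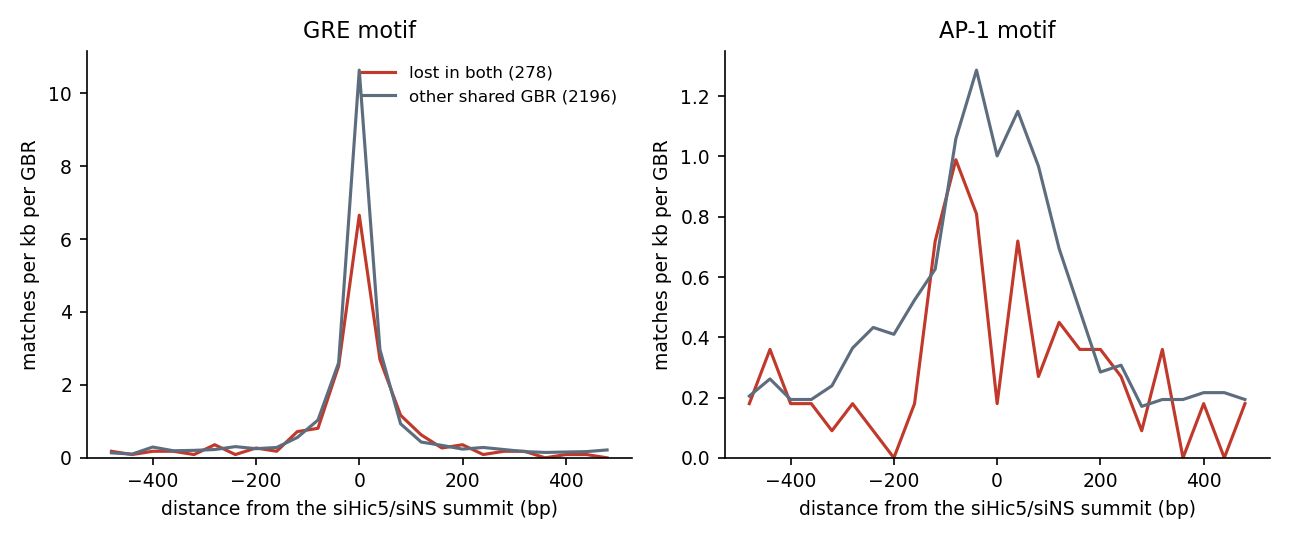
Lines give the number of GRE (left) and AP-1 (right) matches per kb and GBR in 40-bp bins by distance from the siHic5/siNS summit, for members (red, 278 GBR) and other shared GBR (grey, 2196 GBR). GRE matches peak at the summit in both sets, at 6.65 and 10.6 per kb, and AP-1 matches in the central bin number 0.180 and 1.00 per kb, the former from 2 matches. The lines are not grouped by strength.

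No difference in position from the other shared GBR passed its interval, though 1 interval barely included 0. Within 5 kb of a TSS of any annotated gene were 20.1% of the members and 25.5% of the others (−5.40 points, −10.1 to 0.006). Against GBR kept in both that difference was −5.61 points (−10.4 to −0.09). By GENCODE release 44, 148 members (53.2%) were intergenic, 118 (42.4%) were in introns, 9 (3.24%) in a UTR and 2 in coding exons, with 52.7% of the other shared GBR intergenic and 42.3% in introns. The median distance to the nearest protein-coding TSS was 58.5 kb for the members and 52.5 kb for the others. Summits of 23 members (8.27%) were within 5 kb of a TSS, against 10.9% of the other shared GBR (difference −2.61 points, −5.64 to 1.42), and 94 (33.8%) were more than 100 kb away. Median GC content of the 1 kb windows was 45.8% in the members and 47.7% in the others.

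Among the members within 5 kb of a TSS, the 8 strongest were NID1 (−3.05 kb), ATP11B (0.918 kb), TLN2 (4.64 kb), PXN (2.96 kb), ADNP (1.93 kb), CDH16 (−2.21 kb), PGC (−0.32 kb) and ZFP36 (−4.22 kb), where negative distances are upstream of the TSS. TLN2 and PXN encode talin 2 and paxillin, which link integrins to actin at focal adhesions. The PXN intron member (chr12:120262419-120263046) had 37.01 in siHic5/siNS and 15.3 in siNS/siNS, and the TLN2 member (chr15:62394956-62395434) had 40.2 and 12.6, and neither was called in a single depletion.

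Members by chromosome made up 9 of 27 shared GBR (33.3%) on chromosome 21, 20 of 111 (18.0%) on chromosome 6 and 1 of 55 (1.82%) on chromosome 19. The 9 on chromosome 21 had siHic5/siNS values from 12.2 to 104, and besides RUNX1 and TPTE they lay in or near TMPRSS15, ITSN1, KCNJ15, PDE9A, SIK1 and ADARB1, the last with 2 members. These chromosomes were singled out after their counts were seen and were not tested.

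Few genes of the lists considered had a member within 100 kb of the TSS. Of 40 known GR target genes 3 did (7.50%, against 2.07% of all 20046 protein-coding genes), and 27 had another shared GBR in that range (67.5%, against 15.6% of all protein-coding genes). BIRC3, an inhibitor of apoptosis, had a member 16.2 kb upstream with 37.5 in siHic5/siNS and 15.1 in siNS/siNS. ZFP36, whose product promotes decay of inflammatory mRNAs, had the member 4.22 kb upstream with 33.9 and 13.8. FAM107A, an actin-associated protein, had a member 0.179 kb upstream in an annotated UTR with 15.7 and 13.3. Of 15 clock genes 1 did, the repressor gene BHLHE40 (22.6 and 14.6), of 20 adhesion genes PXN alone, and of 20 AP-1 and ETS factor genes FOSL2 alone (25.5 and 13.4). None of the 20 osteoblast genes and 20 remodeler and coregulator genes had one. All 6 of these genes had at least 1 further siHic5/siNS GBR within 100 kb of the TSS, and none of the 6 members was called in a single depletion. Another shared GBR was in range of 26.7% of the clock, 30% of the adhesion and 35% of the AP-1 and ETS factor genes. The shares were 15% for the osteoblast and 20% for the remodeler and coregulator genes. Member counts in lists of 15 or 20 genes are too small to be set against the 2.07% of all protein-coding genes.

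Another siHic5/siNS GBR lay within 10 kb of 103 members (37.1%) and of 40.3% of the other shared GBR (difference −3.20 points, −9.05 to 2.96). For 51 of the 103 at least 1 of these neighbours was called in a double depletion, and for 29 at least 1 was called in both. These shares were 49.5% and 28.2%, and those of the 884 other shared GBR with a neighbour were 59.8% and 39.9%. They are a description, since the double depletion lists also chose the members, and they were not grouped by strength. The nearest neighbour was stronger than the member in 52 of 103 cases, and stronger than the GBR itself in 22.1% of the 884 others, and the members were weaker to begin with. At BIRC3 the neighbour, 4488 bp away (chr11:102306000-102306779), was kept in both and had 214 in siHic5/siNS against 37.5 for the member. At ZFP36 it was 6264 bp away with 283, at BHLHE40 2440 bp away with 60.3, and beside the member in an intron of AP1S3 999 bp away with 97.7, and all 3 were kept in both. At FAM107A the neighbour, 4749 bp away with 12.01, was a blocked GBR absent from both. These neighbours were named after their values were seen and do not stand for all 103. By class, the nearest neighbour was a blocked GBR absent from both double depletions for 52 of the 103 members. It was a shared GBR kept in both for 24. Over all 9533 siHic5/siNS GBR these classes held 5609 and 1600, so they are also common in the list itself. Neighbour classes were not counted for the other shared GBR. In all, 9 members (3.24%) had a double depletion peak within 1000 bp without overlap, 52 (18.7%) within 10000 bp and 114 (41.0%) within 50000 bp. Blocked GBR absent from both were similar by list. A siCHD9/siHic5 peak lay within 10 kb of 12.9% of the members and 9.54% of these blocked GBR (3.41 points, −0.13 to 7.93). For siBRM/siHic5 the shares were 16.2% and 12.7% (3.49 points, −0.47 to 8.35).

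At the edges of the rule, the smallest overlaps of a member with a siNS/siNS peak were 211, 226 and 241 bp (nearest TSS ZWINT, an intron of RAB31, and ST3GAL1), and the other shared GBR with the smallest overlap with a double depletion peak had 270, 284 and 290 bp (TMEM17, RANBP17 and MAML2). The 3 members closest to a double depletion peak were the RPRD1B intron site, 93 bp away, and sites near YWHAQ and in KRT7, 199 and 366 bp away. The overlap minimum therefore had little bearing on membership: with 50% of the shorter peak required to overlap the count was again 278, and with peaks within 500 bp counted as overlapping it was 280, of which 274 were members.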

How the data were processed

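GR ChIP-seq had 12 ChIP libraries (2 replicates for each of 6 siRNA combinations) and 6 inputs. The authors mapped trimmed single-end reads with BWA to GRCh38/hg38, removed duplicates and called peaks on pooled replicates with MACS2 and the IDR framework; versions are not given in the sources used here. The deposited lists give each peak a signal value, computed by the authors, and the −log10 of its p- and q-values as deposited. These depend on read depth, which was not measured here. Ranks and strength groups were made within a list, and values of 2 lists stand side by side as a description. Overlap was at least 1 bp. Shares have 95% Wilson intervals, their differences Newcombe intervals, and differences within 5 strength groups are Mantel-Haenszel differences; with pooled replicates no p-value was computed. The members and gene lists were chosen with earlier results of these data known. Named sites are the 10 strongest members in siHic5/siNS, the 5 strongest in siNS/siNS, the 3 weakest, up to 8 near a TSS, all near listed genes, up to 10 called in a single depletion, and those at the edges of the rule. Motifs used the GRCh38 reference, and genes GENCODE release 44. Alternatives changed the overlap, thresholds, list sizes, windows and strength groups. Python 3.11.15, pandas 2.3.3 and pysam 0.24.0 were used. The overlap, Mantel-Haenszel and motif search steps were tested on simulated data, and the annotation, distance and neighbour steps were not.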

Additional observations from a re-analysis of the deposited data

How the results depend on the processing

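No paired analysis was possible because each list pools its 2 replicates, and for the same reason no replicate could be left out. Of 130 alternative values 99 kept their direction and their side of the interval or stayed within it. The count of 278 became 55 with all lists at the highest of their lowest −log10 q and 105 with the 4 lists at equal size. It became 7 with −log10 q of at least 20 in siNS/siNS and siHic5/siNS. Each setting removes weak peaks, but the first also shortened the siCHD9/siHic5 list and the second the siBRM/siHic5 list. Of the 55 and 105 GBR, 37 and 47 were among the 278, as were all 7 of the third setting. With these 7 GBR no share is precise: 0% were called in siCHD9/siNS, 28.6% in siBRM/siNS and 0% were within 5 kb of a TSS, the median TSS distance was 138 kb, and motif differences were −3.67 (GRE), −23.9 (AP-1) and 22.8 (ETS, reversed) points with intervals including 0. At the common −log10 q, 0% were called in siCHD9/siNS, 3.64% in siBRM/siNS and 5.45% were within 5 kb of a TSS. At equal size 13.3% were called in siBRM/siNS and the GRE difference was −8.77 points (−18.6 to 0.15). The GRE difference also missed its interval over 5 groups by siHic5/siNS −log10 p (−0.60), by siNS/siNS −log10 p (−2.40), by signal value (−0.58), over 25 groups by −log10 p and GC content (−2.03, added after seeing the data) and with no mismatch (−4.42), and was reversed over 10 groups (1.12, −5.83 to 8.08). With all annotated genes 20.1% of members were within 5 kb of a TSS and the median distance was 18.6 kb. The AP-1 difference ranged from −23.9 to −10.2 points and missed its interval only with the 7 GBR. The differences in single depletion calls ranged from −83.5 to −21.0 points in siCHD9/siNS and from −59.2 to −9.02 in siBRM/siNS, all past the interval. The RUNX difference in the 1 kb, whose intervals included 0 throughout, was 0.51 and 0.67 points over 5 and 10 groups by siNS/siNS −log10 p, reversed. Read depth was not measured here. The lowest −log10 q was 14.2 in siBRM/siHic5 and 7.26 to 8.91 in the others, so absence from a list says only that no peak passed its threshold.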
